A study of Mus musculus with 474 samples.

Results

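Haematopoietic stem cells (HSCs), the bone marrow cells that renew all blood lineages, differed widely after a division in culture in how much messenger RNA of the DNA replication machinery their daughters held. The cells set against each other here were daughters of wild type HSCs of the strain C57BL/6JRj, taken from bone marrow of male mice aged 12 to 19 weeks, whose first division outside the body was filmed. Each daughter was picked by micromanipulation and sequenced alone with Smart-seq2, a plate method that reads whole transcripts, and the labels call the sister that received more lysosomes high and the other low. All groups share genotype, strain, sex, tissue and treatment, so the groups below are classes of divisions drawn from their own transcripts.

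Of 203 divisions with 1 high and 1 low daughter, 71 had no count of Plk1, the gene of a kinase that drives entry into mitosis, in either sister. These Plk1-negative divisions hold 142 of the 474 cells, and the other 132 divisions had a Plk1 count in at least 1 sister. Within each culture experiment the Plk1-negative divisions were ranked by the sisters' mean log2(CPM + 1) of Mcm5, a subunit of the replicative helicase, where CPM scales each cell's counts on genes to a common total. From each experiment 1 in 3 divisions was taken at the top of the ranking, called Mcm5-high, and 1 in 3 at the bottom, called Mcm5-low, rounded down. Each of these classes holds 21 divisions with 42 cells, and 27 divisions with 54 cells lie between them (the middle group). Each class took 5 divisions each from experiments 76 and 77, 3 from experiments 60 and 74, 2 from experiment 75 and 1 from experiments 68, 69 and 73. Experiment 72, with 2 Plk1-negative divisions, gave none. The experiment is the replicate, with 8 sums of counts in each class, and the labels do not tell how many mice lie behind one.

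Before a cell can copy its DNA, the origin recognition complex and its helpers Cdc6 and Cdt1 load the hexameric helicase of Mcm2 to Mcm7 onto origins, a step called licensing that is blocked by geminin. The kinase Cdc7 with Dbf4 then fires the origins, Cdc45 and the GINS complex turn the helicase on, and polymerases with the sliding clamp PCNA copy both strands. Transcription factors of the E2F family switch on most of these genes late in G1. HSCs in the marrow rest outside the cell cycle most of the time, and in culture with cytokines they enter it.

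Mcm5 (ENSMUSG00000005410, chromosome 8, 75109569 to 75128439 on GRCm38) and Plk1 chose the divisions, so their values are given as a description only. The mean log2 level of Mcm5 had a lowest, median and highest value of 8.73, 9.22 and 9.79 in Mcm5-high divisions and of 0.47, 5.11 and 8.18 in Mcm5-low divisions. In the middle group it ran over 0.81, 8.4 and 9.66. Summed per experiment, Mcm5 stood at 667 ± 117 CPM in Mcm5-high and 90.7 ± 58.5 CPM in Mcm5-low divisions (SD, n = 8 each), with 391 CPM in the middle group and 483 CPM in the Plk1-positive divisions. Here and below, levels of Plk1-positive divisions are means over the same 8 experiments, so those of experiment 72 are left out. The classes are cut from a continuous range: in experiment 76 the lowest Mcm5-high division had 8.92 and the highest of the middle group 8.9, in experiment 73 these were 9.25 and 9.21, and in experiment 68 the lowest of the middle group had 0.81 and the highest Mcm5-low division 0.47. The step at the lower boundary was wider in experiment 73, with 9.21 in the middle group and 4.6 in the Mcm5-low division, and in experiment 69, with 7.87 and 4.74.

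Sisters of Mcm5-high divisions had near-equal Mcm5 and sisters of Mcm5-low divisions often did not. The absolute difference between sisters had a median of 0.32 (range 0.03 to 0.93) log2 units in Mcm5-high and 2.64 (0.05 to 9.09) in Mcm5-low divisions, with 0.71 (0.01 to 4.86) in the middle group. No Mcm5 count was found in 0 of 42 Mcm5-high cells and in 6 of 42 Mcm5-low cells, and those 6 came from 6 divisions whose other sister had a count. The high daughter had the more Mcm5 in 10 of 21 Mcm5-high and 11 of 21 Mcm5-low divisions. A low level in 1 sister lowers the mean that ranks a division and widens its difference, so the wider differences of Mcm5-low divisions are partly set by the choice and carry no test.

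The label was checked against Mcm2 and Pcna, markers of replication that were not used for the ranking. The mean log2 level of Mcm2 had a lowest, median and highest value of 8.67, 9.43 and 10.05 in Mcm5-high and of 2.07, 7.29 and 9.08 in Mcm5-low divisions. For Pcna these were 7.27, 8.02 and 8.87 in Mcm5-high and 2.12, 5.72 and 7.86 in Mcm5-low divisions. Single divisions of both classes thus overlapped for both markers, and the lowest Mcm5-high division lay above the Mcm5-low median for each.

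**Figure D1:**
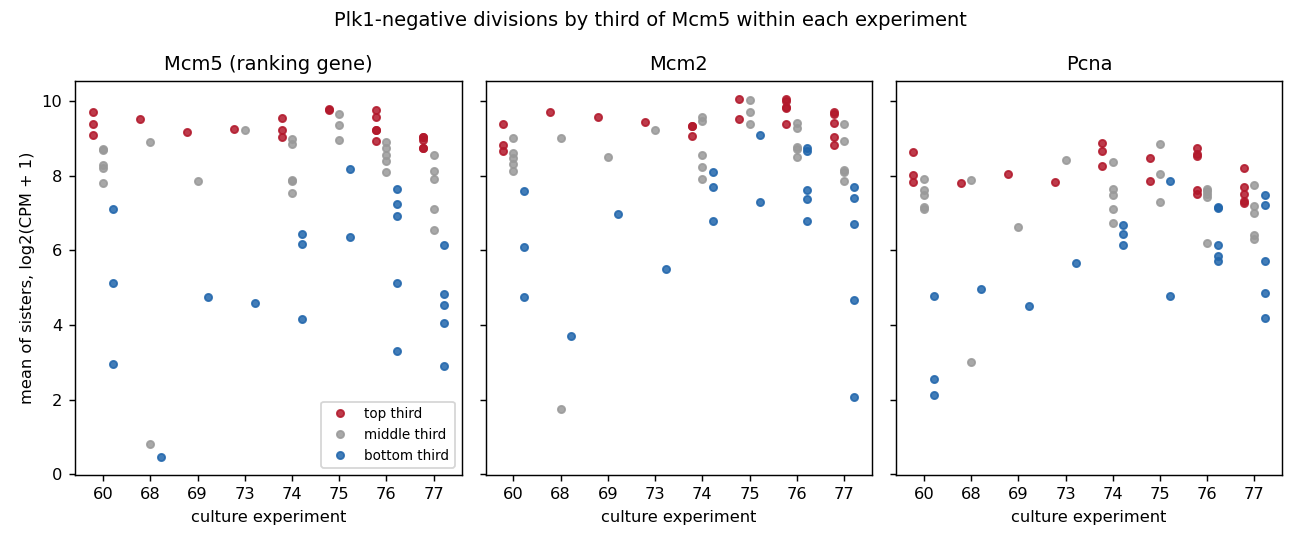
Each point is 1 Plk1-negative division, with the mean log2(CPM + 1) of its sisters on the vertical axis and the culture experiment on the horizontal axis, for Mcm5 (the ranking gene), Mcm2 and Pcna. Within every experiment the Mcm5-high class (red) lies above the Mcm5-low class (blue) for Mcm5 by construction, with the middle group in grey, and its lowest division has 8.67 for Mcm2 and 7.27 for Pcna, while the Mcm5-low class runs down to 2.07 and 2.12.

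The libraries of the classes differed before any gene is considered. Mcm5-high divisions had a mean of 9786 ± 461 detected genes per cell and Mcm5-low divisions 8953 ± 509 (SD, n = 8 experiments), a difference of 832 ± 526.2 with the same sign in 8 of 8 experiments (two-sided exact sign-flip permutation test over experiments, p = 0.00781, the smallest these permit, adjusted p = 0.0156 over 4 measures). Within run 4 the difference was 718 and within run 5 it was 1022, where the smallest p possible is 0.0625 and 0.25. Total counts were higher in Mcm5-high divisions by 0.33 ± 0.31 log2 units, in 7 of 8 experiments (exact p = 0.0312, adjusted p = 0.0312), by 0.32 in run 4 and 0.34 in run 5, though with medians over divisions the difference was 0.20 (exact p = 0.0938). The share of counts on mitochondrial genes was 1.53% ± 0.19 in Mcm5-high and 1.97% ± 0.39 in Mcm5-low divisions, higher in Mcm5-high divisions in 1 of 8 experiments (difference -0.44 ± 0.40 percentage points, -0.35 in run 4 and -0.60 in run 5, exact p = 0.0312, adjusted p = 0.0312). Spike-ins, synthetic RNAs of known sequence, took 0.0289% of counts in Mcm5-high and 0.0401% in Mcm5-low divisions of run 4, and 0.688% and 0.965% in run 5. Their share was lower in Mcm5-high divisions in 8 of 8 experiments (exact p = 0.00781, adjusted p = 0.0156), and gene counts per spike-in count were higher by 0.46 ± 0.40 log2 units. Both classes of an experiment sat on 1 plate in 7 of 8 experiments, while in experiment 69 they sat on different plates. Totals on genes ran over 191675 to 1593600 in Mcm5-high cells and 198884 to 1159002 in Mcm5-low cells. No molecular identifiers were used, so PCR copies count as separate reads. The part of depth and detected genes in the differences of single genes was not tested beyond the fits with depth terms and with thinned cells given below.

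HSC transcripts were present in both classes. The first share is of Mcm5-high and the second of Mcm5-low cells: Mecom, Hlf and Ly6a had a count in 100% and 100%, Procr in 88.1% and 90.5%, Fgd5 in 88.1% and 88.1%, Vwf in 64.3% and 73.8%, and Slamf1 in 26.2% and 33.3%. Of the 6 lists of other cell types, none had a member past the threshold in the comparison below. The myeloid sum was higher in Mcm5-high divisions in 1 of 8 experiments, and its member Lyz2, the gene of a lysozyme, stood at -0.73 and was lower in 7 of 8 (edgeR, adjusted p = 0.235). With divisions as units Lyz2 passed the threshold in edgeR (-0.81, adjusted p = 0.00749), also with depth covariates (-0.92, adjusted p = 0.0383). Such fits count divisions of the same experiment as separate replicates, though the experiment is the replicate. The part of myeloid transcripts in the results was not tested. The summed CPM ran over 128 to 340 in Mcm5-high and 217 to 546 in Mcm5-low divisions for the myeloid list (4 of 14 genes tested), 73.7 to 170 and 53.4 to 188 for the lymphoid list (4 of 13), and 621 to 1662 and 443 to 1325 for the megakaryocyte and erythroid list (9 of 20). They ran over 298 to 496 and 222 to 624 for the mast cell and basophil list (2 of 9), 0.47 to 311 and 0 to 102 for the macrophage and dendritic list (3 of 10), and 30.6 to 184 and 32.8 to 235 for the stroma and endothelium list (2 of 12). Mpo, Ctsg, Rag1, Rag2, Cd3e, Fcer1a, Cma1 and C1qa are listed at 0 in all 474 libraries. So are Cdt1, Gins2 and Tk1 of replication, and 34 listed genes in all, so a 0 throughout is not read as absence.

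Against Mcm5-low divisions, Mcm5-high divisions had 205 genes higher (2% of 10255 genes tested) and 44 lower (0.429%) by edgeR's quasi-likelihood test on the sums, with the experiment as block and Benjamini-Hochberg adjusted p under 0.05, leaving out Mcm5. Those counts were 67 and 7 without experiment 60, 68 and 9 when divisions were ranked by Mcm2, 602 and 308 with DESeq2, and 0 and 0 when 1 sister was ranked and the other read. The median log2 fold change of all genes was 0.02. This median and the shares of 2% higher and 0.429% lower are the background for every list below. In 125 genes (1.22%) every Mcm5-high sum lay above every Mcm5-low sum, and in 9 genes (0.0878%) below. The sign was the same in 8 of 8 experiments for 476 genes higher (4.64%) and 152 lower (1.48%). At an unadjusted p under 0.05 there were 1509 genes (14.7%). The filter on low counts asked for 8 sums above a cutoff, the size of 1 class. A gene with no count in a sum of 1 class thus passed only with sums of the other class. Calls of such genes are counted here but not read as tests. They include Mcm8, Mcm10, Gmnn, Cdc7, Rrm2, Uhrf1, Tedc1, Brca1, Blm, Mybl2, Spc24, Bub1b, Ndc80, Tacc3, Tfrc and Tcp11l2. Every fold change below is Mcm5-high over Mcm5-low on the log2 scale with its SE, and adjusted p-values come from this edgeR fit over all genes. Fold changes compare relative levels within libraries, not amounts of RNA per cell. Since sums rest on between 1 and 5 divisions of a class in an experiment, the p-values measure the spread between experiments of unequal size.

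Subunits of the replicative helicase other than Mcm5 were higher in Mcm5-high divisions. Mcm2 (chromosome 6, 88883474 to 88898780) had 505, 725 and 935 CPM (lowest, median and highest experiment) in Mcm5-high and 12.4, 165 and 374 CPM in Mcm5-low divisions. Mcm7 (chromosome 5, 138164583 to 138172422) had 383, 627 and 702 CPM in Mcm5-high and 10.2, 93.9 and 359 CPM in Mcm5-low divisions. Mcm6 had 653, 937 and 965 CPM in Mcm5-high and 26.2, 228 and 496 CPM in Mcm5-low divisions. The sums of both classes did not overlap for these genes, nor for Mcm3 and Mcm4. In Mcm5-low divisions the sums were lowest in experiment 68, which has 1 division in each class, and highest in experiments 75 and 76. The log2 fold changes were 2.35 ± 0.43 for Mcm2, 2.01 ± 0.29 for Mcm3, 2.48 ± 0.46 for Mcm4, 2.20 ± 0.43 for Mcm6 and 2.88 ± 0.47 for Mcm7 (edgeR, adjusted p from 0.00465 to 0.0181), each higher in 8 of 8 experiments. Without experiment 60 the adjusted p was 0.0535 for Mcm2, 0.0547 for Mcm4 and 0.0547 for Mcm6, and Mcm6 also missed the threshold without experiment 69 or 74, while every set of 7 experiments gave these 3 genes a log2 fold change of at least 1.83. In the middle group Mcm2 stood at 482 CPM, Mcm6 at 631 CPM and Mcm7 at 330 CPM, between both classes. Exons of Mcm7 share 12.6% of their bases with other genes, and since it is not given whether counting used strand, reads there cannot be told apart.

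The promoters of Mcm5 itself and of Mcm3, Mcm6 and Mcm7, subunits of the same hexamer that were high together, are shown because each holds letters of the E2F site. They are RefSeq windows on GRCm38.p6 over 250 bases before to 50 after the start, read along the gene's strand, with matches in capitals. The search took TTTCCCGC, TTTGGCGC, TTTCGCGC and TTTGCCGC on both strands. A match describes the letters and is neither a bound site nor a cause.
Mcm5: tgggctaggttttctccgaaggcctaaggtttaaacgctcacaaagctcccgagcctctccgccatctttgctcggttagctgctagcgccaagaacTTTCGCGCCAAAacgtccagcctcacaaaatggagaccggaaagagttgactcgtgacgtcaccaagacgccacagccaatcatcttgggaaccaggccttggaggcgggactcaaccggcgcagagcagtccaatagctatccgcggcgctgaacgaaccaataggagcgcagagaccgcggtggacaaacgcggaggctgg
Mcm3: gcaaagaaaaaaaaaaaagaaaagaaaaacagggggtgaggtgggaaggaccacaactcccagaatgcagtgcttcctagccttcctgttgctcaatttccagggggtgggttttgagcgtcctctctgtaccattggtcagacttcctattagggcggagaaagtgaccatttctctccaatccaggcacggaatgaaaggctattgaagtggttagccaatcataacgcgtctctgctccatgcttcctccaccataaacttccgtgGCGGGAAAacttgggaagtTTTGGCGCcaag
Mcm6: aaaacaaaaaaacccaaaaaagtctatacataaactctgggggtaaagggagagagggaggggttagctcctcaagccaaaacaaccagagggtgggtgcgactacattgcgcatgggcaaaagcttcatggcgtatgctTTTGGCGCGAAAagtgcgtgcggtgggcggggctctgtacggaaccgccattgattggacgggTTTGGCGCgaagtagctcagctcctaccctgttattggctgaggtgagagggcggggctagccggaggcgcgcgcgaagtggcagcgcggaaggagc
Mcm7: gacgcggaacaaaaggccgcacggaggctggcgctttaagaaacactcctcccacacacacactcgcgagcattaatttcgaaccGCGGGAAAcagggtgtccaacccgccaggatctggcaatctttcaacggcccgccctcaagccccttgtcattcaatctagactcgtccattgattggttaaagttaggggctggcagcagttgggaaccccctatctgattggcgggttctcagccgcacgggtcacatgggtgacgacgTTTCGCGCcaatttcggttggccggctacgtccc
Mcm5 lies at chr8:75109259-75109558 on the plus strand, with 2 matches that share 4 bases in 1 run beginning 153 bases before the start. Mcm3 lies at chr1:20820263-20820562, minus strand, with 2 matches, at 19 and 38 bases after the start. Mcm6 lies at chr1:128359656-128359955, minus strand, with 3 matches, 2 of them overlapping from 110 bases before the start. Mcm7 lies at chr5:138171834-138172133, minus strand, with 2 matches, at 165 bases before and 16 after the start. The windows of Mcm2, Pcna and Rpa1 hold no match, nor does the window of Dnmt1 nearest to its start, and Mcm4 had no window in the table used.

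Such a match was found in 2.26% of 32851 promoter windows and in 5.08% of the 8113 tested genes that have one. Among the genes higher in Mcm5-high divisions 36 of 170 with a window held one (21.2%), and among the genes lower there 0 of 33. In the lists the share was 9 of 18 (50%) for origin licensing, 7 of 15 (46.7%) for G1/S regulators, 10 of 27 (37%) for the replisome, 6 of 16 (37.5%) for chromatin copying and 3 of 16 (18.8%) for DNA repair, but 1 of 19 (5.26%) for nucleotide synthesis and 1 of 38 (2.63%) for mitosis. The letters TTTGAA, the core of the element named CHR of mitotic genes, were in 28 of 38 mitosis windows (73.7%) and 7 of 15 G1/S windows (46.7%), against 13.7% of tested genes and 17.6% of the genes higher in Mcm5-high divisions. The 8 letters of the lysosomal element CLEAR, TCACGTGA, were in 5 of 22 lysosome windows (22.7%), 3 of 16 chromatin copying windows (18.8%), 2 of 33 of the genes lower in Mcm5-high divisions (6.06%) and 2.43% of tested genes. The windows of Sqstm1, Ctsl and Npc2, the autophagy and lysosome genes called lower below, do not hold them.

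The origin licensing list, which includes the hexamer, held 20 genes, of which 19 were tested, 9 were higher and none was lower. Its median log2 fold change was 2.20, against 0.02 for all genes. The 9 were the 5 hexamer subunits above with Mcm8, Mcm10, Gmnn and Cdc7. Mcm10, which helps to activate the helicase, had 8.07, 73.7 and 193 CPM in Mcm5-high and 0, 3.04 and 7.82 CPM in Mcm5-low divisions, with no overlap of sums (log2 fold change 4.65 ± 0.65, adjusted p = 0.00417). Gmnn, the gene of geminin, had 64.0, 90.7 and 160 CPM in Mcm5-high and 0, 12.2 and 33.0 CPM in Mcm5-low divisions (3.34 ± 0.66, adjusted p = 0.0188, and 0.0689 without experiment 60). The origin-firing kinase gene Cdc7 had 66.9, 97.2 and 166 CPM in Mcm5-high and 0, 6.23 and 47.5 CPM in Mcm5-low divisions (3.77 ± 0.78, adjusted p = 0.0251), and missed the threshold without experiment 60, 68, 74 or 77, with up to 0.0907. These 3 genes had a count in 32 to 42 of 42 Mcm5-high cells and in 10 to 21 of 42 Mcm5-low cells. Each had no count in some Mcm5-low sums and passed the filter on low counts only with Mcm5-high sums. Their calls are thus not read as tests, nor is that of Mcm8. Mcm8, of a helicase that acts in repair by recombination, was higher by 5.65 ± 1.12 (adjusted p = 0.02) and missed the threshold without experiment 60, 74 or 77, with up to 0.0739. Its levels were 14.6, 36.0 and 44.1 CPM in Mcm5-high and 0, 0.23 and 60.7 CPM in Mcm5-low divisions, and experiment 69 went the other way.

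The origin recognition complex gave no gene past the threshold. Orc3 had 60.6, 109 and 166 CPM in Mcm5-high and 78.6, 109 and 156 CPM in Mcm5-low divisions (log2 fold change 0.02 ± 0.20), and Orc4 had 56.9, 99.7 and 124 CPM in Mcm5-high and 66.8, 113 and 285 CPM in Mcm5-low divisions (-0.39 ± 0.23). Orc5 stood at 0.56 ± 0.92, Orc2 at 1.23 ± 0.37, Orc6 at 1.64 ± 0.62 and Orc1, the subunit under E2F control, at 3.49 ± 1.12, and none of the 6 passed the threshold (edgeR, adjusted p from 0.113 to 0.974). Orc1 had a count in 76.2% of Mcm5-high and 19.0% of Mcm5-low cells. Cdc6, the loader of the helicase, had 22.5, 110 and 174 CPM in Mcm5-high and 0, 12.7 and 40.5 CPM in Mcm5-low divisions, in the same direction in 8 of 8 experiments (3.03 ± 0.76, adjusted p = 0.0567). Dbf4, the partner of Cdc7, stood at 1.18 ± 0.39, Mcmbp, a chaperone of the MCM proteins, at 0.91 ± 0.23 and Mcm9 at 0.40 ± 0.45, all short of the threshold. Exons of Orc2 and Mcm9 share 29.8% and 19.2% of their bases with neighbours.

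The replisome was the list with the most members called. Of 36 listed genes 33 were tested, 24 were higher and none was lower, and the median log2 fold change was 2.88. Rpa1, the large subunit of the protein that coats single-stranded DNA, had 273, 350 and 727 CPM in Mcm5-high and 32.1, 83.7 and 250 CPM in Mcm5-low divisions (2.06 ± 0.26, adjusted p = 0.00417). Prim2, of the primase that starts each new strand, had 120, 209 and 282 CPM in Mcm5-high and 3.57, 21.2 and 66.6 CPM in Mcm5-low divisions (3.27 ± 0.42, adjusted p = 0.00417). Both had sums that did not overlap, and Prim2 had a count in 42 Mcm5-high and 24 Mcm5-low cells of 42 each. Pcna, the clamp, had 209, 277 and 399 CPM in Mcm5-high and 20.3, 74.9 and 138 CPM in Mcm5-low divisions (2.15 ± 0.32, adjusted p = 0.00529). Lig1, which joins the fragments of the lagging strand, had 148, 262 and 296 CPM in Mcm5-high and 7.54, 41.1 and 136 CPM in Mcm5-low divisions (2.54 ± 0.35, adjusted p = 0.00417). Wdhd1, which ties the polymerase with the primase to the helicase, was higher by 2.95 ± 0.42 (adjusted p = 0.0042). These 5 calls held in all sets of 7 experiments, with an adjusted p of at most 0.0261.

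Genes that supply nucleotides were higher too. Of 21 listed genes 20 had a count somewhere, 19 were tested, 13 were higher and none was lower (median log2 fold change 1.61). Rrm1 and Rrm2 encode the subunits of ribonucleotide reductase, which makes deoxynucleotides. Rrm1 had 182, 414 and 683 CPM in Mcm5-high and 25.3, 64.9 and 208 CPM in Mcm5-low divisions (2.44 ± 0.37, adjusted p = 0.00529), with sums that overlapped. Rrm2 had 55.4, 93.8 and 347 CPM in Mcm5-high and 0, 10.9 and 30.4 CPM in Mcm5-low divisions (3.89 ± 0.58, adjusted p = 0.00529). Its count was above 0 in 39 of 42 Mcm5-high and 16 of 42 Mcm5-low cells. Dut, which keeps uracil out of DNA, had 178, 202 and 304 CPM in Mcm5-high and 16.4, 58.8 and 102 CPM in Mcm5-low divisions (2.11 ± 0.28, adjusted p = 0.00417), and the purine enzyme gene Paics was higher by 1.07 ± 0.16 (adjusted p = 0.00529).

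Genes that copy chromatin along with DNA were higher in 9 of 16 tested (18 listed), with a median of 1.55. Dnmt1, which copies DNA methylation onto the new strand, had 414, 612 and 749 CPM in Mcm5-high and 66.1, 158 and 285 CPM in Mcm5-low divisions (1.83 ± 0.25, adjusted p = 0.00417). Uhrf1, which brings DNMT1 to partly methylated sites, had 179, 379 and 490 CPM in Mcm5-high and 0, 19.98 and 85.5 CPM in Mcm5-low divisions (4.48 ± 0.73, adjusted p = 0.00819). For both genes every Mcm5-high sum lay above every Mcm5-low sum. Hat1, an acetyltransferase for new histones, had 181, 314 and 473 CPM in Mcm5-high and 67.2, 103 and 164 CPM in Mcm5-low divisions (1.56 ± 0.20), and Slbp, which binds the stem-loop of histone messenger RNA, was higher by 1.82 ± 0.26 (both adjusted p = 0.00417). Hjurp, a chaperone of the centromere histone CENP-A outside that list, was higher by 1.83 ± 0.26, and Cep128, of centrioles, by 4.04 ± 0.56. Tedc1, also of centrioles, passed the filter on low counts only through Mcm5-high divisions, so its call is not read as a test. It had 1039 counts in 28 of 42 Mcm5-high cells and 1 count in 1 of 42 Mcm5-low cells, a ratio of CPM of 781 with a 95% counting interval of 140 to 3.09e+04.

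DNA repair genes were higher in 13 of 21 tested (22 listed), with the highest median of the lists, 3.50. Brca1, of repair by homologous recombination, had 43.8, 79.8 and 188 CPM in Mcm5-high and 0, 0.80 and 3.61 CPM in Mcm5-low divisions (6.13 ± 0.78, adjusted p = 0.00417). Blm, a helicase that resolves recombination intermediates, was higher by 3.30 ± 0.52 and Usp1, which removes ubiquitin from PCNA, by 1.47 ± 0.20 (adjusted p = 0.00633 and 0.00417). Brca1 had a count in 36 Mcm5-high and 8 Mcm5-low cells, of 42 each. Brca1 and Blm had no count in some Mcm5-low sums and passed the filter on low counts only with Mcm5-high sums. Their calls are thus not read as tests.

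Among 16 tested regulators of the G1/S step (18 listed), 4 were higher and none was lower (median 1.60). E2f1, a factor that switches on replication genes, had 63.8, 91.1 and 319 CPM in Mcm5-high and 9.26, 23.8 and 28.1 CPM in Mcm5-low divisions (2.30 ± 0.32, adjusted p = 0.00417), and its DNA-binding partner Tfdp1 was higher by 1.20 ± 0.17 (adjusted p = 0.00417). Cks1b, a partner of cyclin-dependent kinases, was higher by 1.79 ± 0.33 (adjusted p = 0.0141) and Mybl2 by 3.46 ± 0.70 (adjusted p = 0.0224, and up to 0.0876 without experiment 60, 74 or 76). With log2 totals and detected genes as covariates over divisions, E2f1, Cks1b and Mybl2 stood at 1.56, 1.43 and 2.06 with adjusted p = 0.226, 0.108 and 0.31, so their calls were lost. Of 9 tested D cyclins, their kinases and inhibitors none passed. Cdk6 had 441, 666 and 1151 CPM in Mcm5-high and 114, 256 and 701 CPM in Mcm5-low divisions (1.16 ± 0.30, adjusted p = 0.0695). Cdk4 stood at 0.45 ± 0.18, and the inhibitor genes Cdkn2c and Cdkn1b at 3.52 ± 1.12 and -0.82 ± 0.39.

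Mitotic genes were lower in Mcm5-high and Mcm5-low divisions than in Plk1-positive divisions, which the choice on Plk1 sets. The summed level of the mitosis list was 1016 ± 574 CPM in Mcm5-high and 434 ± 329 CPM in Mcm5-low divisions, and 8271 CPM in Plk1-positive divisions. Of 45 listed genes 30 were tested and 4 were higher in Mcm5-high divisions, the kinetochore genes Spc24 (5.06 ± 0.97) and Ndc80 (4.37 ± 1.06), the spindle checkpoint gene Bub1b (4.51 ± 1.001) and Tacc3 (3.43 ± 0.75), of spindle microtubules. Their adjusted p ran over 0.0177 to 0.0494. All 4 had no count in some Mcm5-low sums and passed the filter on low counts only with Mcm5-high sums. These calls are thus not read as tests. In all 8 sets of 7 experiments Ndc80 and Tacc3 missed the threshold, Bub1b in all but those without experiment 75 or 77, and Spc24 in those without experiment 60, 74 or 76. Bub1b had 3.29, 17.1 and 45.4 CPM in Mcm5-high and 0, 0.62 and 3.61 CPM in Mcm5-low divisions, against a mean of 176 CPM in Plk1-positive divisions. A Plk1 count of 0 did not mean that all mitotic transcripts were absent: of the 71 divisions 43 had no Aurkb count either, 19 no Ccnb1 count and 15 no Cdc20 count in both sisters. With the 43 divisions that also lacked Aurkb, a choice made after seeing the data that leaves 11 divisions in each class, edgeR called 0 of 10034 genes (890 at an unadjusted p under 0.05, 8.87%), and the median log2 fold changes were 1.88 for origin licensing and 2.27 for the replisome.

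**Figure D2:**
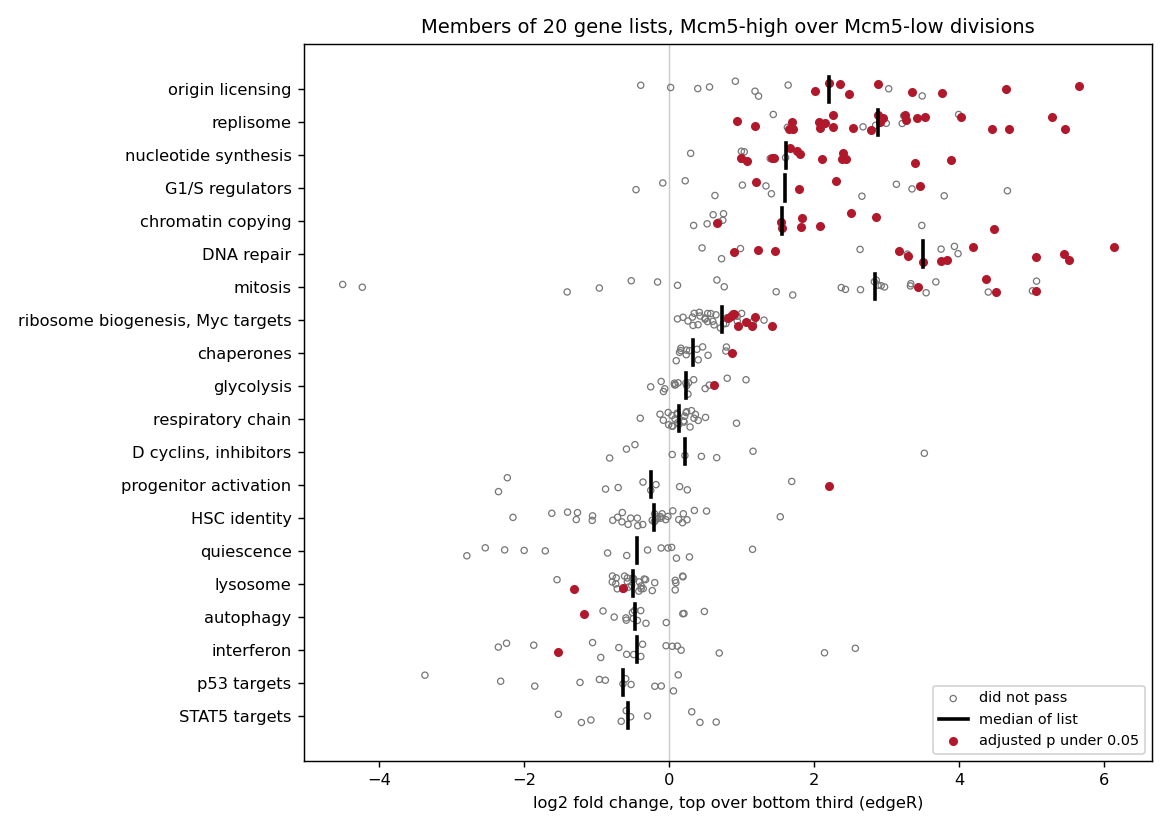
Each row is a gene list and each point a tested member, placed by its log2 fold change of Mcm5-high over Mcm5-low divisions (edgeR), red where the adjusted p was under 0.05, with a black bar at the list's median. The 6 lists of replication, nucleotides, G1/S, chromatin and repair have medians of 1.55 to 3.50 and no member called lower, while the lysosome and autophagy lists have medians of -0.49 and -0.48.

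Genes of a list of ribosome biogenesis and Myc targets had positive fold changes in 36 of 36 tested. Of these 9 were called higher, beside 2% of all genes, and the median was 0.73, against 0.02 for all genes. Not all of them assemble ribosomes: the 9 include the mitochondrial chaperone gene Hspd1 and the nuclear transport gene Ran, named after their values were seen. Nolc1, a nucleolar chaperone, had 170, 257 and 315 CPM in Mcm5-high and 69.0, 104 and 157 CPM in Mcm5-low divisions (1.19 ± 0.18, adjusted p = 0.006), with sums that did not overlap. Nop58 and Nop56, of the particle that methylates ribosomal RNA, were higher by 0.95 ± 0.16 and 1.14 ± 0.19 (adjusted p = 0.00983 each). The abundant nucleolar gene Ncl had 1076, 1428 and 1865 CPM in Mcm5-high and 569, 703 and 1219 CPM in Mcm5-low divisions (0.88 ± 0.17, adjusted p = 0.0181, and 0.0663 without experiment 60), and missed the threshold without experiment 76 too. The summed list had 8847 ± 1458 CPM in Mcm5-high and 5406 ± 1216 CPM in Mcm5-low divisions and was higher in 8 of 8 experiments.

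Other growth lists and the list of progenitor activation gave 1 call or none each, beside 2% of all genes called higher. The 14 tested chaperone genes had positive fold changes in 14 of 14 (median 0.33, against 0.02 for all genes). The chaperone gene Hsp90aa1 was the 1 of 14 tested chaperone genes that passed (0.86 ± 0.19, adjusted p = 0.031), the glycolytic gene Tpi1 the 1 of 18 (0.62 ± 0.15, adjusted p = 0.0462) and the transferrin receptor gene Tfrc the 1 of 11 on the list of progenitor activation (2.21 ± 0.54, adjusted p = 0.0493). Among the 8 sets of 7 experiments Hsp90aa1 passed only without experiment 73 or 75, Tpi1 only without 75 and Tfrc only without 68, with adjusted p up to 0.0908, 0.13 and 0.143. Tfrc had 51.0, 91.2 and 270 CPM in Mcm5-high and 0, 24.2 and 56.4 CPM in Mcm5-low divisions. The list of progenitor activation did not rise with it: 4 of 11 tested members had a positive fold change (median -0.25). Its summed level was higher in Mcm5-high divisions in 2 of 8 experiments. Of 25 tested genes of the respiratory chain none passed (median 0.14), nor did any of 7 encoded by the mitochondrial genome (median -0.30), of 17 of cholesterol synthesis (median 0.02) or of 6 of the Myc network. Myc itself, which drives ribosome assembly and growth, had 117, 294 and 767 CPM in Mcm5-high and 2.14, 138 and 350 CPM in Mcm5-low divisions (1.25 ± 0.58, adjusted p = 0.336).

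**Figure D3:**
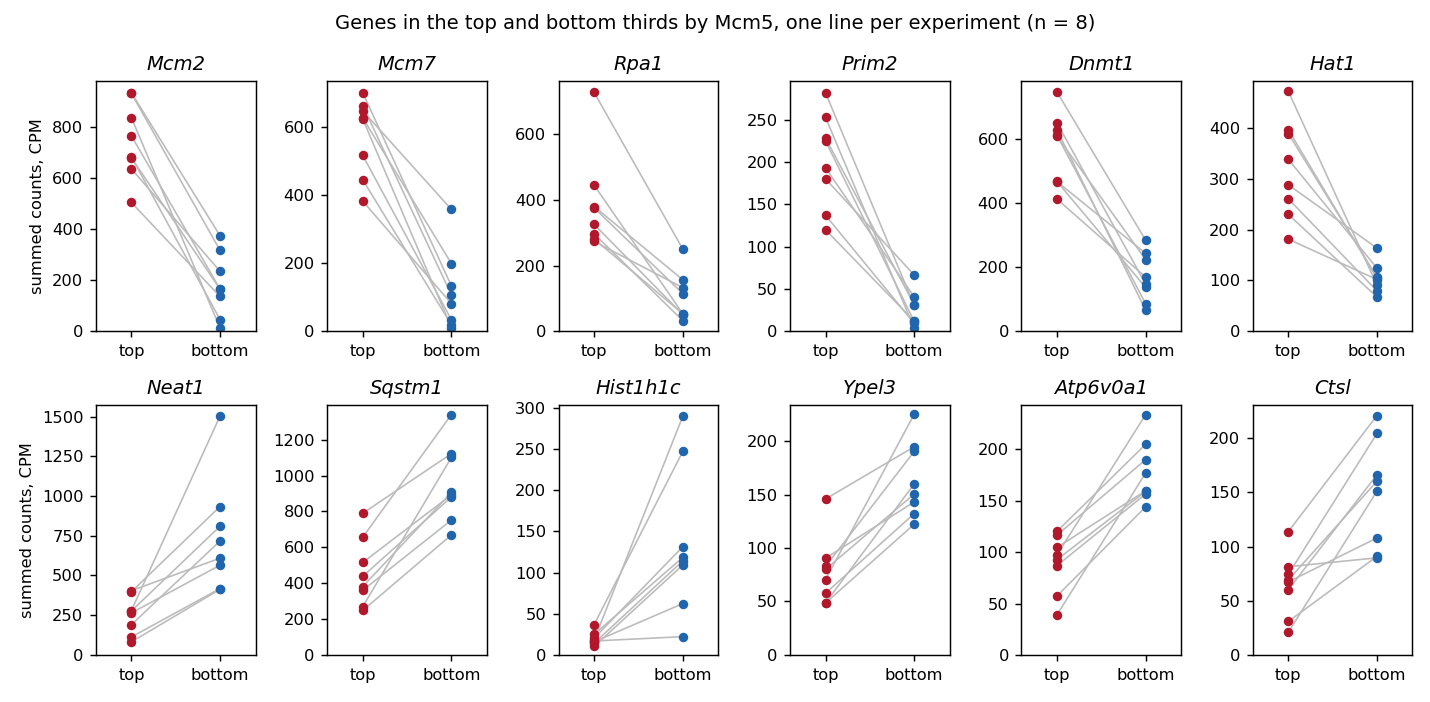
For 12 genes, each line joins the summed CPM of Mcm5-high divisions (top, red) and Mcm5-low divisions (bottom, blue) of 1 experiment, on axes that start at 0. In the upper row all lines fall from left to right, with Mcm2 at 505 to 935 CPM in Mcm5-high and 12.4 to 374 CPM in Mcm5-low divisions, and in the lower row they climb, with Neat1 at 81.8 to 404 CPM in Mcm5-high and 413 to 1504 CPM in Mcm5-low divisions.

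The 44 genes lower in Mcm5-high divisions were led by Neat1 (chromosome 19, 5824708 to 5845478), a nuclear long non-coding RNA that builds paraspeckles. It had 81.8, 270 and 404 CPM in Mcm5-high and 413, 663 and 1504 CPM in Mcm5-low divisions, with no overlap (-1.67 ± 0.20, adjusted p = 0.00417). Sqstm1, the gene of the autophagy receptor p62, had 248, 410 and 790 CPM in Mcm5-high and 669, 899 and 1340 CPM in Mcm5-low divisions (-1.17 ± 0.16, adjusted p = 0.00417). Hist1h1c, a linker histone gene, had 10.3, 17.6 and 36.9 CPM in Mcm5-high and 22.2, 116 and 290 CPM in Mcm5-low divisions (-2.62 ± 0.36, adjusted p = 0.00417). All 3 were lower in 8 of 8 experiments and kept an adjusted p of at most 0.0229 in every set of 7, and Sqstm1 and Hist1h1c had sums that overlapped. Naming asked for the same sign in nearly all experiments, so this agreement is partly set by the choice. Exons of Sqstm1 share 17.3% of their bases with Mrnip.

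Further genes lower in Mcm5-high divisions were Il15, a cytokine (-1.51 ± 0.25), Ypel3, linked to growth arrest (-1.18 ± 0.20), Atp6v0a1, a subunit of the proton pump of lysosomes (-1.09 ± 0.20), Lsp1, an actin-binding protein of leukocytes (-1.88 ± 0.36), and Pdcd6ip, of membrane budding (-0.86 ± 0.16). Stat2, which relays interferon signals, had 11.03, 27.0 and 69.1 CPM in Mcm5-high and 48.9, 65.6 and 124 CPM in Mcm5-low divisions (-1.53 ± 0.30, adjusted p = 0.0181). Hmox1, which breaks down haem, had 10.8, 92.0 and 140 CPM in Mcm5-high and 60.8, 339 and 624 CPM in Mcm5-low divisions (-2.30 ± 0.47, adjusted p = 0.0238), and was higher in Mcm5-high divisions in experiment 76, with 140 CPM there and 72.4 CPM in Mcm5-low divisions. Tcp11l2 had a count in 35.7% of Mcm5-high and 90.5% of Mcm5-low cells (-3.75 ± 0.76, adjusted p = 0.0232), and Ankrd12, Abhd4 and Rab11fip5 stood at -0.89 ± 0.17, -0.92 ± 0.18 and -1.25 ± 0.26. Without experiment 60 Atp6v0a1 (adjusted p = 0.0547), Lsp1 (0.0591), Pdcd6ip (0.0502), Stat2 (0.0639), Ankrd12 (0.0547), Abhd4 (0.0558), Tcp11l2 (0.0768), Hmox1 (0.0706) and Rab11fip5 (0.0756) missed the threshold, while Il15 and Ypel3 passed in every set of 7. Ankrd12 also missed it without experiment 76, Abhd4 without 74 or 77, Tcp11l2 without 74, 75 or 76, Hmox1 without 68, 69, 73, 75 or 77, and Rab11fip5 without 69, 74, 75, 76 or 77.

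Lysosome genes had mostly negative fold changes. The labels sort sisters by lysosomes, but both sisters of a division are summed here, so the label does not enter these values. Of 30 tested, 5 had a positive fold change, 2 were called lower and none higher. Of all genes 0.429% were called lower. The median of the list was -0.49, against 0.02 for all genes. Summed CPM of the list were 8357 ± 1673 in Mcm5-high and 11190 ± 1710 in Mcm5-low divisions, lower in 8 of 8 experiments. These are shares of a library and not amounts per cell. Gene counts per spike-in count were higher in Mcm5-high divisions by 0.46 ± 0.40 log2 units, in 8 of 8 experiments, near the size of this median. Whether the amount of lysosome or autophagy RNA per cell differed was not tested. The protease gene Ctsl had 20.9, 68.4 and 114 CPM in Mcm5-high and 89.6, 156 and 221 CPM in Mcm5-low divisions (-1.31 ± 0.27, adjusted p = 0.0236), and Npc2, which carries cholesterol out of lysosomes, had 151, 234 and 326 CPM in Mcm5-high and 261, 339 and 432 CPM in Mcm5-low divisions (-0.63 ± 0.14, adjusted p = 0.0362). Ctsl missed the threshold without experiment 60, 68, 73, 76 or 77, with up to 0.0723, and Npc2 without any 1 experiment but 73, with up to 0.0961, and Npc2 missed it without TMM factors (0.0504). Asah1 stood at -0.78 ± 0.21 and Ctsb at -0.52 ± 0.15, short of the threshold. Of 15 tested autophagy genes Sqstm1 was lower and none was higher (median -0.48), beside 0.429% of all genes called lower. Exons of Ctsl share 26.8% of their bases with overlapping genes.

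HSC identity genes gave no call in 35 tested, 8 of them with a positive fold change (median -0.20). Pdzk1ip1, a marker of resting HSCs, had 29.6, 101 and 255 CPM in Mcm5-high and 139, 222 and 360 CPM in Mcm5-low divisions (-1.26 ± 0.32, adjusted p = 0.0564). It was lower in 8 of 8 experiments. In edgeR fits it passed with divisions as units (-1.19, adjusted p = 0.000456) and with depth covariates added (-1.09, adjusted p = 0.0207). Those fits count divisions of the same experiment as separate replicates, so they do not replace the result on sums. With thinned cells 2 HSC identity genes were called lower, Pdzk1ip1 among them. Procr, the gene of the receptor EPCR, had 9.9, 84.2 and 143 CPM in Mcm5-high and 93.9, 168 and 375 CPM in Mcm5-low divisions (-1.62 ± 0.48, adjusted p = 0.106). Both sets of sums overlapped. Fgd5 stood at -1.40 ± 0.50, Tie1 at -0.64 ± 0.18, Mecom at -0.44 ± 0.21 and Hlf at -0.71 ± 0.34. Of 14 tested quiescence genes 4 had a positive fold change and none passed (median -0.44), with Ccng2 at -2.79 ± 0.82 and the Myc antagonist gene Mxd4 at -1.71 ± 0.46 (adjusted p = 0.106 and 0.0745). Of 13 tested p53 targets 2 had a positive fold change and none passed (median -0.64), with Ccng1 at -1.23 ± 0.33. Of 18 tested interferon genes Stat2 was lower (median -0.44), beside 0.429% of all genes called lower. Of 10 STAT5 targets and 10 immediate early genes none passed (medians -0.56 and -0.29). A p above the threshold in these lists does not show equal levels.

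Ranking and reading the same cells lets a shared fault of a library enter both, so the classes were also formed on 1 sister and read in the other. Ranked by the high daughter and read in the low daughter, edgeR called 0 of 9315 genes (754 at an unadjusted p under 0.05, 8.09%). Ranked by the low daughter and read in the high daughter, it called 0 of 9276 (592 at an unadjusted p under 0.05, 6.38%). The replisome had positive values in 31 of 31 genes tested in each reading, with medians of 2.48 and 2.11, while 5134 of 9312 and 5370 of 9269 of all genes were positive. Origin licensing had 15 of 17 and 17 of 19 positive (medians 1.99 and 1.68), DNA repair 17 of 17 and 18 of 19 (3.06 and 2.29) and the list of ribosome biogenesis and Myc targets 34 of 36 and 35 of 36 (0.73 and 0.60). The lysosome list had 4 of 30 and 6 of 30 positive (medians -0.43 and -0.38). Mcm2 stood at 2.42 and 1.69, Rpa1 at 1.86 and 2.07, Neat1 at -1.78 and -1.35 and Sqstm1 at -1.13 and -1.09 in the readings of the low and of the high daughter, none past the threshold. Not every named gene kept its size: Il15, at -1.51 with both sisters, stood at -1.18 and -0.19 in these readings. A division's own Plk1 count still chose both sisters.

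**Figure D4:**
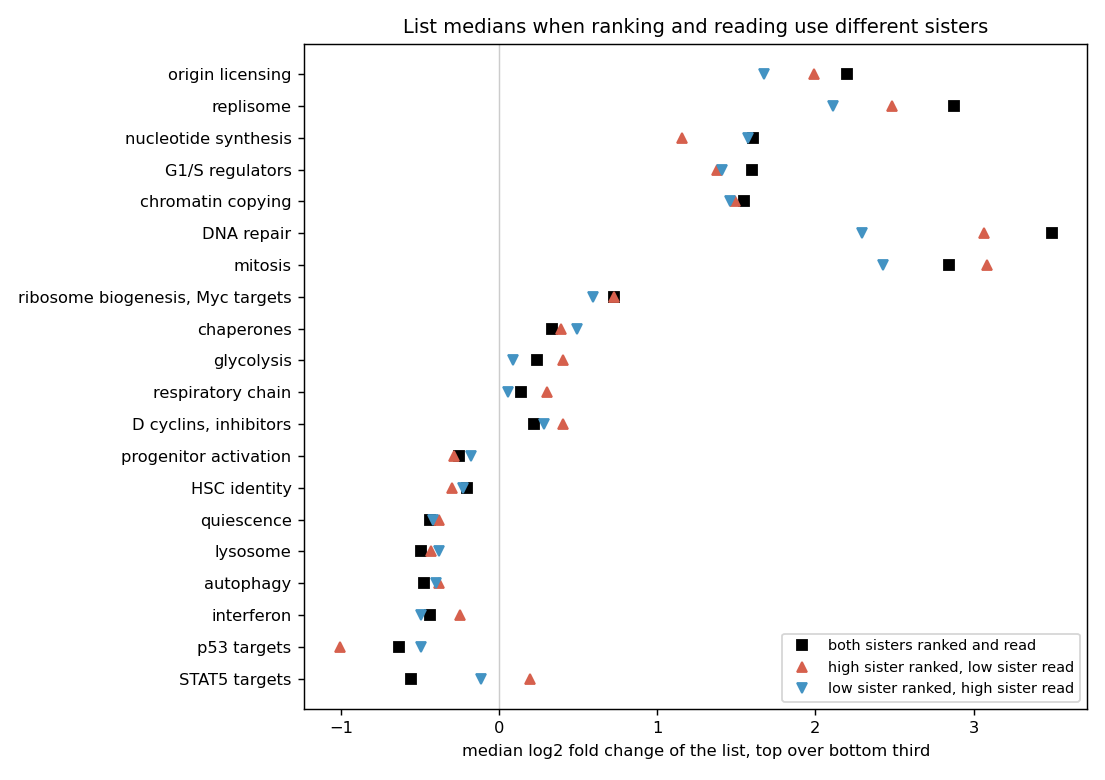
The horizontal axis gives the median log2 fold change of each list, Mcm5-high over Mcm5-low, when both sisters were ranked and read (squares), when the high sister was ranked and the low sister read (upward triangles) and when the low sister was ranked and the high sister read (downward triangles). The replisome stands at 2.88, 2.48 and 2.11 and the lysosome list at -0.49, -0.43 and -0.38.

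The difference between the classes gave no gene that depended on sequencing run or lysosome label past the threshold. The interaction of class and run gave 0 of 10255 genes past the threshold in edgeR (515 at an unadjusted p under 0.05, 5.02%). Run 5 holds only 5 divisions in each class, so this 0 does not show equal differences in both runs. The interaction of class and label gave 0 of 10354 (219 at an unadjusted p under 0.05, 2.12%). The label fit blocked on experiment only and did not use the pairing of sisters, so its 0 does not show independence from the label. Within run 4, with 16 divisions in each class, 49 genes were higher and 4 lower, and within run 5, with 5 in each, 5 and 0. The medians were 2.10 in run 4 and 3.72 in run 5 for the replisome, 1.61 and 3.40 for origin licensing and -0.37 and -0.65 for lysosomes. With divisions in place of sums as units, 6.54% of 9248 genes passed in either direction. With log2 totals and detected genes as covariates in that fit, 171 genes were higher and 60 lower and the replisome median was 2.14. Both fits count divisions of the same experiment as separate replicates, though the experiment is the replicate. With cells thinned to 200000 counts, which leaves 69 divisions and 20 in each class after shallower cells were dropped, 193 were higher and 45 lower. Named genes called on the sums but tested and not called in the fit of divisions with depth covariates were Mcm8, E2f1, Hjurp, Cks1b, Mybl2, Tacc3, Ndc80, Tfrc, Tpi1, Npc2, Ctsl, Hmox1, Abhd4 and Rab11fip5. Bub1b and Tedc1 did not enter that fit. Called in that fit but not on the sums were Pdzk1ip1, Asah1 and Lyz2, lower in Mcm5-high divisions, and the glycolytic gene Eno1, higher there. Pdzk1ip1 and Lyz2 also passed with divisions as units and no covariates, so the depth terms did not add their calls. Thinning added Cdc6, higher there, and Pdzk1ip1, Asah1 and Ccng1, lower there.

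The Plk1-positive divisions, which the rule set aside, give a scale for these levels. Summed replisome genes stood at 5323 ± 989 CPM in Mcm5-high, 1312 ± 629 CPM in Mcm5-low and 4942 ± 630 CPM in Plk1-positive divisions. Origin licensing stood at 4368 ± 529 CPM in Mcm5-high, 1382 ± 656 CPM in Mcm5-low and 3532 ± 473 CPM in Plk1-positive divisions. HSC identity genes stood at 10720 ± 1860, 12640 ± 2473 and 8899 CPM in the same order. Lysosome genes stood at 8357 ± 1673, 11190 ± 1710 and 8504 ± 778 CPM, and autophagy genes at 1405 ± 218, 2175 ± 420 and 1387 ± 148 CPM. For lysosome and autophagy genes the Plk1-positive mean thus lay near the Mcm5-high mean, with the Mcm5-low mean above both. Plk1-positive divisions were not compared by a test.

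The genes most like Mcm5 over Plk1-negative divisions were named by the mean of the Spearman correlations within experiments, over the 5 experiments with at least 7 divisions (59 divisions, 9227 genes detected in at least 50% of cells). They were Mcm7 (0.867), Mcm2 (0.856), Wdhd1 (0.85), Mcm6 (0.836), Mcm3 (0.835), Pola1 (0.83), Pold1 (0.83), Lig1 (0.826), Prim2 (0.825) and Psmc3ip (0.824). Of these 10, 9 belong to the origin licensing and replisome lists, and Psmc3ip acts in meiotic recombination. At the other end, singled out after their values were seen, stood Rsrp1 (-0.701), Sqstm1 (-0.669) and Ypel3 (-0.668). The points share libraries and depth, so these correlations are a description and carry no p.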

How the data were processed

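Messenger RNA of 474 single HSC daughters was sequenced in 2 runs, called 4 and 5. The deposited values are whole-number counts per gene that the authors made with Subread 1.5.0, featureCounts and SAMtools, per the submitters' processing notes. The sources used here do not give the aligner, genome build or use of strand. All 55450 gene IDs matched GENCODE M21 on GRCm38. The other deposited values, the authors' metadata columns, hold the division keys and the lysosome label, and 171 count columns with no mapped sample were left out. Total counts ran over 76735 to 2444858 per cell. Spike-in rows were left out, and counts of Mcm5-high and Mcm5-low divisions were summed per experiment.

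Sums were fitted with edgeR 4.0.16 in R 4.3.3 (filterByExpr, TMM, quasi-likelihood test, experiment as block, Benjamini-Hochberg), with DESeq2 1.42.0 as an alternative. The SE is the fold change over the square root of its F. The block pairs both classes of an experiment by the metadata, since sums of 1 experiment share culture and run. Named were Mcm2, Pcna, all origin licensing genes, 15 genes in each direction and up to 4 of each other list. The 15 had the smallest p among genes past the threshold with the same sign in all or all but 1 of the experiments. Their agreement of sign between experiments is thus partly set by this choice. The members and lists were chosen with earlier results of these data known.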

Additional observations from a re-analysis of the deposited data

Results flagged for a closer look

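Of 151 sets of 8 experiments examined, 10 held 1 experiment that stood apart from the others by Dixon's criterion, which chance meets in about 1 set of 20. All values are differences of log2(CPM + 1), Mcm5-high minus Mcm5-low divisions, given, except for Ankrd12, with the nearest other experiment. In experiment 68, with 1 division in each class, Orc5 stood at -6.07 (nearest -0.77), Dbf4 at 3.05 (nearest 1.65) and Tfrc at 6.23 (nearest 2.89). In experiment 69, also with 1 division in each class and with the classes on different plates, Mcm8 stood at -0.59 (nearest 3.39) and Atp6v0a1 at -2.16 (nearest -1.32). In experiment 73, with 1 division in each class, Myc stood at 6.90 (nearest 2.28) and Asah1 at 0.77 (nearest -0.53). In experiment 60 Ankrd12 stood at -1.55 and Cycs at 2.49 (nearest 1.27), and in experiment 76 Bax stood at 0.61 (nearest -0.40). Thus 7 of the 10 came from experiments with 1 division in each class. The part of that small number in these values was not tested.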

How the results depend on the processing

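Against 205 genes higher and 44 lower in Mcm5-high divisions, the counts were 602 and 308 with DESeq2, 413 and 161 with no filter on low counts, 440 and 165 with divisions as units, and 365 and 121 with plate added to that fit. They were 68 and 9 ranked by Mcm2, 179 and 26 ranked by Pcna, 173 and 27 ranked by summed CPM, 16 and 0 with 1 in 4 divisions taken at each end, 49 and 4 in run 4, and 5 and 0 in run 5. They were 0 and 0 when 1 sister was ranked and the other read, in both directions, and 0 and 0 with Aurkb-negative divisions. The cause was not tested, though the smaller ends, runs, single sisters and Aurkb-negative divisions use fewer cells. Leaving out each experiment gave 67 to 168 higher and 7 to 31 lower genes, fewest without experiment 60. Without the replicate block, the pairing of both classes by experiment, the counts were 201 and 50. The difference of log2 total counts was 0.20 with medians over divisions (exact p = 0.0938, against 0.0312 with means). Among the 146 named genes 0 changed direction past the threshold under any alternative run, and of the 60 past it 34 stayed so in every set of 7 experiments. Ndc80 and Tfrc missed it with RLE factors (adjusted p = 0.051 each). A criterion of 5 mitotic genes at 0 left 1 division and was not run. Genes at few counts per sum are limited by depth: a 0 there is no absence.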
